A study of Drosophila melanogaster with 4 samples.

Results

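Cuticle protein genes were taken as all genes whose FlyBase symbol begins with Cpr, Lcp, Edg, Twdl, Ccp84A or obst-. The symbols matched 132 genes of the reference, and 131 remained once Cpr, the NADPH-cytochrome P450 reductase, which shares only its letters with the family, was set apart. Of these 131 genes, 128 are annotated as protein coding and 3 as pseudogenes, and all 131 had rows in the exon tables, which hold 14470 gene rows in all. By family there were 70 Cpr, 17 Lcp, 3 Edg, 26 Twdl, 7 Ccp84A and 8 obst- genes. RNA sequencing compared whole Drosophila melanogaster larvae of Oregon R, the wild type strain, with Smn mutants of genotype SmnX7/D, each in 2 libraries of polyadenylated RNA. Larvae of both groups were 74 ± 2 h past egg laying and had been reared on molasses and agar at 24 ± 1 °C. The series asks whether arrested development accounts for the expression differences of genes with minor introns. Nothing states that the libraries of a group came from separate cultures, so p-values measure only the spread between these libraries, and in whole larvae fewer cells making a cuticle protein cannot be told apart from less RNA per cell.

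The insect cuticle is a layered coat of chitin fibres bound by structural proteins, secreted by the epidermis and the tracheae and rebuilt at every moult under the control of ecdysone. Most Cpr, Lcp, Edg and Ccp84A proteins carry the Rebers and Riddiford chitin-binding motif. Tweedle (Twdl) proteins are an insect-specific family found through mutants of altered body shape, and obstructor (obst-) proteins carry peritrophin-type chitin-binding domains. Different members are deposited in different instars, regions of the body and layers of the cuticle.

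In the annotation of the dm6 assembly, 110 of the 128 protein-coding members had an intron in the coding region, and 82 of these (74.5%) had exactly 1, against 27.4% of all genes with a coding intron. The first coding intron of 41 members (37.3%) followed exactly 12 coding bases, which is 4 codons, against 1.33% of all genes. Within at most 30 coding bases it was reached in 65.5% of members and 11.3% of all genes. The lines below show this placement in members whose values are described further on, with the coding bases from the start codon in capitals and the first 8 intron bases in lower case, 5′ to 3′, from the dm6 genome.
Cpr67Fa1 (3L:10890049-10890068, + strand): ATGTTCCGCTACgtaagtca
Cpr67Fa2 (3L:10891768-10891787, + strand): ATGTTCCGCTACgtaagtat
Cpr78Cc (3L:21300621-21300640, + strand): ATGTTTAAGCTAgtgagtag
TwdlX (X:16731170-16731192, + strand): ATGAAGCAGTTTGTGgtaagtcc
Twdlalpha (X:16742923-16742945, + strand): ATGCGTCTATTTGTGgtaagtta
TwdlM (3R:26619167-26619189, + strand): ATGCGTGCCTTCATTgtaagtat
TwdlE (2L:7860675-7860700, - strand): ATGCATTCCAGTTGTGTGgtatgatc
Edg91 (3R:17611446-17611477, - strand): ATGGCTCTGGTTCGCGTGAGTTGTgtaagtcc
The Lcp65A and Cpr65Ax genes differed from this layout, with 119 coding bases before the intron in each of Lcp65Ag1, Lcp65Ag2 and Lcp65Ag3, and 110 in Cpr65Ax1 and Cpr65Ax2. All 49 member introns tested for spliced read pairs began with GT and ended with AG, as did 99.3% of the 9422 tested introns that could be placed on the annotation. None of the 49 began with ATATCCTT or GTATCCTT, the usual start of a minor intron, searched on the gene's own strand, and 8 of the 9422 did.

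Several members are near-identical copies, and their introns are shown because reads within them cannot be told apart. The introns of Edg91 and TwdlM, which have no such copy, are shown because values below turn on them. Capitals mark the first and last 2 bases of each intron.
Lcp65Ag1, Lcp65Ag2 and Lcp65Ag3 (3L:6135034-6135094, 3L:6133353-6133413 and 3L:6130750-6130810, - strand): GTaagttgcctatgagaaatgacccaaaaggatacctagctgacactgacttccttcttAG
Cpr65Ax1 and Cpr65Ax2 (3L:6147762-6147829 and 3L:6150633-6150700, - strand): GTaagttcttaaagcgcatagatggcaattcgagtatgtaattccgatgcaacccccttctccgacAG
Edg91 (3R:17611391-17611453, - strand): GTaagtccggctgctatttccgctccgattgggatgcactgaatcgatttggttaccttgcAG
TwdlM (3R:26619182-26619258, + strand): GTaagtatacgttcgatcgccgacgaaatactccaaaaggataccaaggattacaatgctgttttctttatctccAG
The 3 Lcp65Ag introns were the same in all 61 bases, and their coding regions of 315 bases differed at 1 or 2 positions. Cpr65Ax1 and Cpr65Ax2 were the same in all 306 coding and all 68 intron bases. Their spliced read pairs were the same number in each library that listed them, while both had a mean normalized count of 0 over the wild type and mutant libraries in the authors' deposited table. Lcp65Ab1 and Lcp65Ab2, identical over the whole coding region, had means of 0.205 and 0.267 in the authors' deposited table. The values of these copies are therefore uncertain for each gene. Cpr67Fa1 and Cpr67Fa2 shared 96.5% of aligned coding bases. Their introns differ in length, at 157 and 238 bases, and matched at 119 of 238 alignment positions, a total that includes gaps. Lcp1 shared 88.5% of its coding positions with Lcp2.

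The measurements were read pairs that the authors' software placed in classes by the form of a splicing event they fit. For each retained intron event, a spliced read pair fits only the form without the intron and a retained read pair only the form with it. An event appeared for a library only with at least 20 read pairs. Spliced read pairs summed to between 1733986 and 2355707 per library, and wild type library 2 was the shallowest. On the log2 scale, the 2 mutant libraries correlated at 0.968 over 9957 introns and the wild type libraries at 0.819, while wild type library 2 reached 0.7 and 0.695 with the mutants. Smn has no intron event and a single exon bin with no fold value, so the labels could not be checked on the mutated gene. Spliced read pairs of muscle, fat body, midgut, nervous system, blood and tracheal or epidermal markers were detected in every library. Of the 3 listed germ line markers 2 were in the reference, and none could be tested.

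Most member introns with enough reads had more spliced read pairs in both mutant libraries than in both wild type libraries, and a smaller group had fewer. Of the 131 members, 58 had a retained intron event in some library, and 36 had an intron with at least 20 spliced read pairs in at least 2 libraries and an event in all 4. These 36 genes held 49 introns. An intron under 20 pairs in both libraries of a group passed this filter only through the other group, where it was higher. Counts were scaled to the library total of spliced read pairs, and log2 values with a pseudocount of 0.5 were compared by limma with a variance trend, adjusted by the Benjamini-Hochberg method over all 9957 introns. Only 1 member intron, that of Edg91, passed an adjusted p of 0.05, beside 0.191% of all introns. At an unadjusted p under 0.05 there were 32 of 49 member introns, beside 24.9% of all introns. Of these, 21 were higher and 11 lower in mutants, beside 16.4% and 8.52%. Mutant values all exceeded Oregon R values in 28 member introns and all lay below them in 12, against backgrounds of 38.9% and 21.3%. Introns of a single gene and near-identical copies are counted separately here. Cpr49Ac alone held 7 of the 12 lower introns, some of which share bases, and the Lcp65Ag copies are all among the 28. The median log2 change was 1.21 over member introns and 0.24 over all introns. With 1 intron per gene, an alternative chosen after seeing the data, the median was 1.97 over the 36 genes, of which 23 lay higher without overlap, 6 lower and 7 overlapped. The background shares and median above are per intron, and none was taken at 1 intron per gene, so these counts have no background beside them. The number past the adjusted threshold depended on the libraries used: it was 43 without wild type library 1, where 53.4% of all introns passed, and 36 without wild type library 2, where 36.8% did. It was 7 without mutant library 1 and 9 without mutant library 2, beside 0.854% and 0.783% of all introns.

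**Figure D1:**
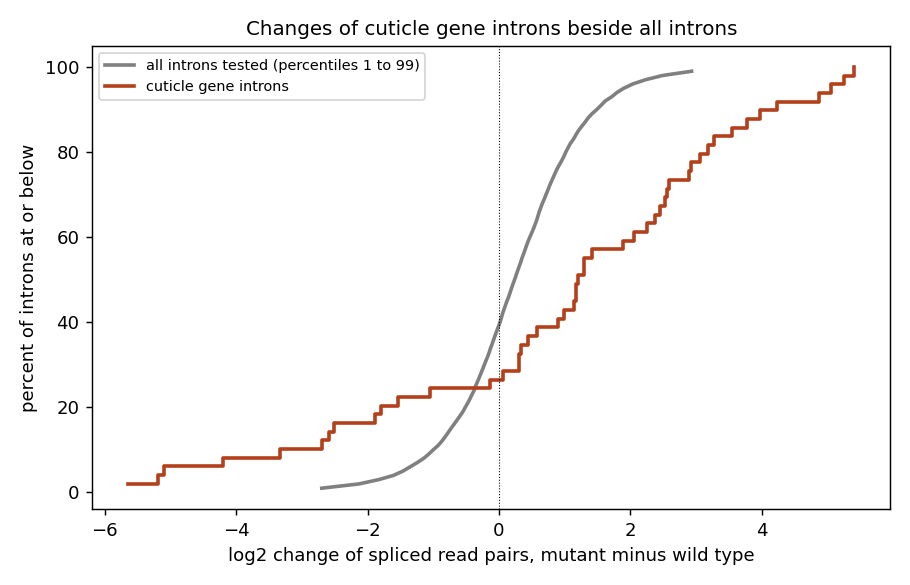
Cumulative distribution of the log2 change in spliced read pairs, mutant minus wild type (x axis), with the percent of introns at or below it (y axis), for the 49 cuticle gene introns and all 9957 introns tested. The cuticle curve is spread further both ways than the grey curve of all introns and has its median at 1.21 against 0.24.

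The wild type libraries stood far apart in many members. Wild type library 1 exceeded wild type library 2 by more than 4-fold in 13 of the 49 member introns and the reverse occurred in 0, and a gap past 4-fold in either direction was found in 26.5% of member introns and 7.54% of all. Between the mutant libraries such a gap occurred in 4.08% of member introns and 0.201% of all. In 22 member introns (44.9%) wild type library 2 lay below wild type library 1, which lay below both mutant libraries, an order seen in 24.9% of all introns. The 4 libraries are therefore given one by one.

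Lcp1 to Lcp4, clustered on chromosome arm 2R, encode major larval cuticle proteins, and the 3 with a tested intron all had fewer spliced read pairs in mutants. The Lcp2 intron (2R:4321965-4322026, dm3) had 3601 and 3725 spliced read pairs in Oregon R and 199 and 68 in the mutants. The log2 change was -5.19 (SE 0.594), with an adjusted p of 0.0593 by limma. For Lcp3 (2R:4323006-4323061) the counts were 9096 and 4283 in Oregon R and 2061 and 792 in the mutants, a log2 change of -2.51 (SE 0.565, adjusted p = 0.11 by limma). Lcp4 (2R:4325213-4325269) had 9908 and 9265 spliced read pairs in Oregon R and 5172 and 1753 in the mutants, a log2 change of -1.89 (SE 0.571, adjusted p = 0.137 by limma). All 3 genes therefore separated the groups without overlap, and none passed the adjusted threshold. Lcp9, a larval cuticle gene elsewhere on 2R, had 3624 and 1281 pairs in Oregon R and 1262 and 588 in the mutants, where the lower wild type and the higher mutant library nearly met before scaling (log2 change -1.54, SE 0.577). The share of Lcp2, Lcp3 and Lcp4 was taken over the spliced read pairs of member introns listed in all 4 libraries. Together they held 61.0% and 78.7% in the Oregon R libraries and 16.6% and 9.59% in the mutants.

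The 4 Lcp65A genes with a tested intron, in another cluster of larval cuticle genes on 3L, had more spliced read pairs in both mutants, though none passed the adjusted threshold. Lcp65Ag1 (3L:6128134-6128194) had 1178 and 11 spliced read pairs in Oregon R and 5112 and 3113 in the mutants. For Lcp65Ag2 (3L:6126453-6126513) they were 830 and 11, then 5561 and 3391. For Lcp65Ag3 (3L:6123850-6123910) they were 1195 and 12, then 6070 and 3645. Wild type library 2 was thus close to empty for all 3 copies, wild type library 1 was intermediate, and both mutants were high. Log2 changes were 4.88, 5.26 and 5.05 with SEs of 1.91, 1.76 and 1.88, and limma's adjusted p was between 0.153 and 0.192. Without wild type library 2 these changes were 1.75, 2.38 and 1.97, and without wild type library 1 they were 8.01, 8.13 and 8.13. Lcp65Ac had 512 and 123 pairs in Oregon R and 1310 and 896 in the mutants (log2 change 1.89, SE 0.627). Lcp65Ae had 1096 read pairs of all classes in wild type library 1, was not listed in wild type library 2, and had 1657 and 994 in mutants, so library 1 lay between the mutants. Lcp65Ad was not listed in wild type library 1 and had 29 spliced pairs in library 2, then 33 and 64 in mutants.

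Cpr47Eg on 2R had the highest log2 change of the 36 members, at 5.41 with an SE of 2.36 and an adjusted p of 0.223 by limma, so the value did not pass. Its intron (2R:7165832-7165899) had 2241 and 7 spliced read pairs in Oregon R and 8699 and 4751 in the mutants, and the change was 1.51 without wild type library 2. Its neighbour Cpr47Ec overlapped between groups, with 628 and 28 pairs in Oregon R and 515 and 240 in the mutants. Cpr67Fa1 had 199 and 11 pairs in Oregon R and 1220 and 908 in the mutants, and its partner Cpr67Fa2 had 162 and 13, then 528 and 314. Cpr78Cc went from 149 and 10 to 419 and 478. Cpr11A on X went from 84 and 16 to 517 and 299. Cpr56F went from 13 and 25 to 132 and 244, a log2 change of 3.06 (SE 0.579, adjusted p = 0.102 by limma). In each of these 5 genes both mutants were above both wild type libraries. Of the spliced read pairs of member introns listed in all 4 libraries, Lcp65Ag and Cpr47Eg introns made up 14.7% and 0.187% in Oregon R. In mutants they made up 56.7% and 54.7%. Reads of the Lcp65Ag copies cannot be told apart, so a pair may be counted for more than 1 copy in this sum. The Cpr65Ax copies, not listed in wild type library 2, are not in the total.

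**Figure D2:**
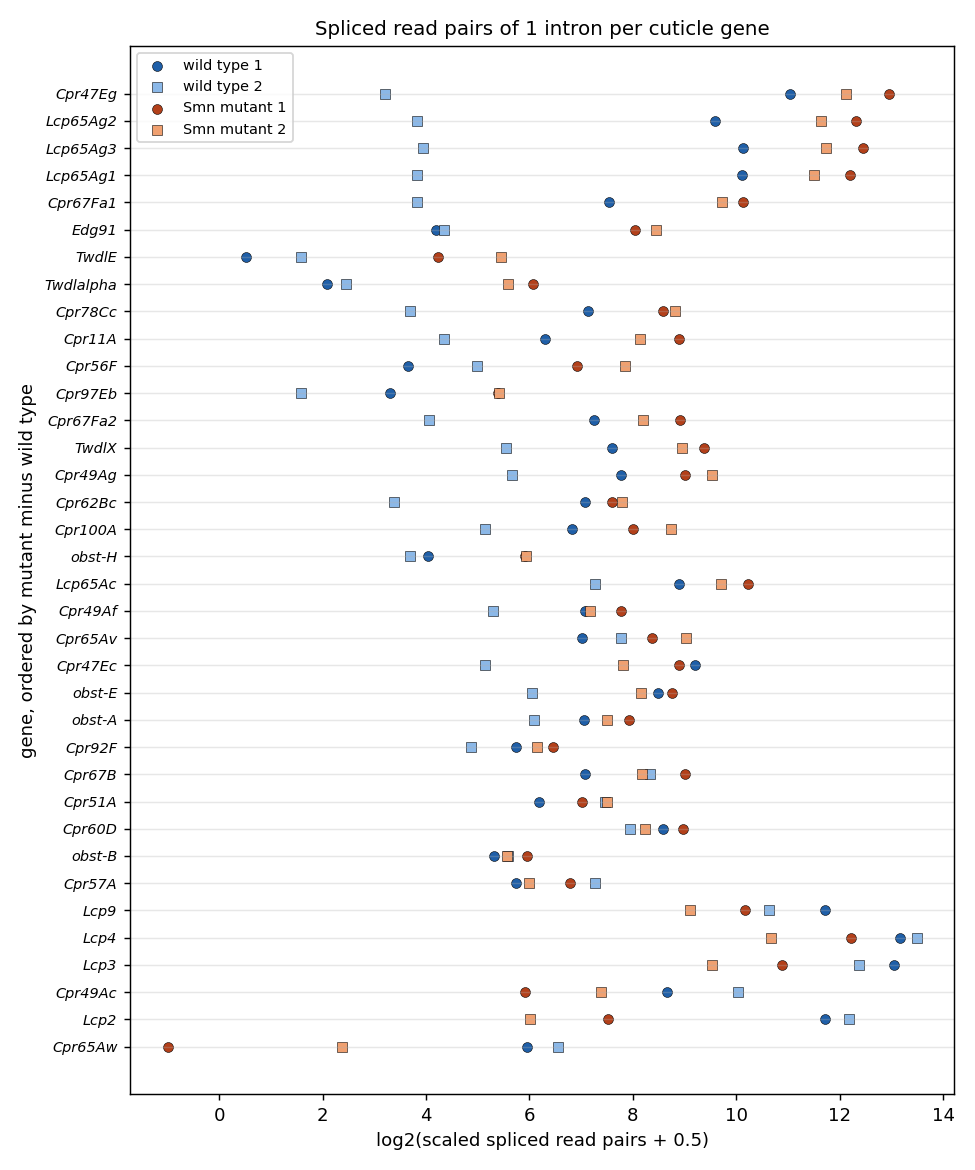
Scaled spliced read pairs, as log2 of the value plus 0.5 (x axis), of the intron with the most spliced read pairs of each of 36 cuticle genes (rows, ordered by mutant minus wild type), with 1 marker per library. From Cpr47Eg at the top down to Cpr65Av all mutant markers lie right of the wild type markers, and in the bottom 6 rows they lie left.

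Cpr65Aw and Cpr49Ac were the Cpr genes with fewer spliced read pairs in mutants. Cpr65Aw, which lies within the Lcp65A cluster, had 66 and 75 pairs in Oregon R and 0 and 5 in the mutants (3L:6135288-6135352). Its intron passed the filter only through Oregon R, where it was higher. The fitted log2 change of -5.64 (SE 1.17, adjusted p = 0.105 by limma) leans on the pseudocount, and was -3.63 with a pseudocount of 5, where it passed. Cpr49Ac (2R:8276592-8276758) had 434 and 836 pairs in Oregon R and 65 and 178 in the mutants, a log2 change of -2.7 (SE 0.698, adjusted p = 0.119 by limma). Its neighbours Cpr49Af and Cpr49Ag lay higher in mutants, the latter at 235 and 40 in Oregon R and 565 and 789 in the mutants. Cpr57A overlapped, with 57 and 123 pairs in Oregon R and 119 and 67 in the mutants, and its intron is shared with Obp57d.

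Edg91, named for its dependence on ecdysone, was the member that rose past the adjusted threshold. Its intron (3R:13437113-13437175, dm3; the sequence is shown above) had 19 and 16 spliced read pairs in Oregon R and 286 and 372 in the mutants. Here the wild type libraries were alike. Both were under 20 pairs, so the intron passed the filter only through the mutants, where it was higher. The log2 change was 3.97 (SE 0.357, adjusted p = 0.0385 by limma), with both mutants above both wild type libraries. Across the alternatives the adjusted p ran from 2.8e-27 to 0.0698, and it missed 0.05 with at least 100 spliced read pairs required (0.0511), with all read pairs of the event (0.0698) and with voom weights (0.0522). The other Edg genes had no event, and Edg84A had a mean count of 0 in each of the authors' deposited tables.

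All 3 testable Tweedle genes lay higher in mutants without overlap, beside 38.9% of all introns. TwdlX had 208 and 37 spliced read pairs in Oregon R and 720 and 531 in the mutants. Twdlalpha had 4 and 4 pairs in Oregon R and 73 and 51 in the mutants, and TwdlE had 1 and 2, then 20 and 46. Log2 changes were 2.59, 3.55 and 3.78, with adjusted p of 0.126, 0.0616 and 0.105 by limma. Twdlalpha and TwdlE stayed under 20 pairs in both wild type libraries. They passed the filter only through the mutants, so their direction was fixed by it. Of the obstructor genes, obst-A, known for organising the chitin scaffold of the larval cuticle, had 142 and 54 pairs in Oregon R and 263 and 194 in the mutants, and obst-H had 17 and 10, then 65 and 65. The obst-H intron also passed the filter only through the mutants. For obst-E, known to set body shape through the cuticle, pairs numbered 382 and 53 in Oregon R and 469 and 303 in the mutants, and for obst-B 42 and 38, then 67 and 50. Both of these overlapped.

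A further set of members could not be tested because wild type library 2 did not list them. Of 77 member events, 20 (26.0%) in 18 genes were not listed there, against 6.19% of all 26072 events, and in 18 of the 20 both mutants had more spliced read pairs than wild type library 1. Of the 1511 events of all genes that wild type library 2 alone did not list, 38.9% had this order. The exceptions were Lcp65Ae and 1 intron of Cpr97Ea. TwdlM had 8 pairs in wild type library 1 and 923 and 773 in mutants. TwdlB had 6, then 150 and 98. Of the 7 Ccp84A genes, which are clustered on 3R, 5 had an event and all 5 belonged to this set. Ccp84Ac had 2 pairs in wild type library 1, then 55 and 145 in mutants, and Ccp84Aa had 7, then 152 and 241. Ccp84Ab had 30, then 168 and 286, Ccp84Ad had 15, then 125 and 299, and Ccp84Ag had 41, then 124 and 176. In all 5, mutant library 2 was higher than mutant library 1. Cpr64Ad had 7, then 154 and 325, and the Cpr65Ax copies had 1462, then 5191 and 2790. No fold is given where a library is not listed.

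Neighbouring members shared a direction in some clusters and not in others. Members less than 20 kb apart were grouped on the annotation. In the run from Lcp65Ag3 to Cpr65Az (18 genes), 5 of 6 tested genes were higher without overlap and Cpr65Aw was lower. The 5 include the Lcp65Ag copies, whose reads cannot be told apart, so these are not separate measurements. In the run from Lcp1 to Lcp4 all 3 tested genes were lower. The run from Cpr49Aa to Cpr49Ah held 2 higher genes and 1 lower, and that from TwdlX to Twdlalpha 2 higher genes. Over all introns, 38.9% lay higher and 21.3% lower without overlap, and no share was taken over runs of other genes.

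Published modENCODE libraries of normal larvae gave stage levels for the same genes. One of the authors' deposited tables joins 2 second instar with 3 puff stage 1-2 libraries, and another joins 2 libraries from 12 h into the third instar with the same 3. They were normalized separately, so the log2 ratio of a gene's mean count in the first to that in the second is a rough contrast of second instar with the third instar, diluted by the shared libraries. Its median was 0.28 over 3836 genes with a mean of at least 10 in either table and a tested intron. For 12 of 36 members the ratio was below -1, and all 12 lay higher in mutants without overlap, by 1.89 to 5.41 on the log2 scale. Among the 23 genes outside these families with such a ratio, 20 also lay higher without overlap. In the authors' deposited tables, Lcp65Ag1 had means of 164 and 1370, Twdlalpha 23.2 and 190, and Edg91 23.6 and 55.6. Lcp4 in turn had 35200 and 34600 in the authors' deposited tables, and Lcp2 9260 and 9030. Of the 22 members with a ratio between -1 and the median of 0.28, 10 lay higher and 5 lower without overlap, beside 36.2% higher among the 1885 genes of that range. The share lower was not taken for that range, and over all introns it was 21.3%. TwdlX had a ratio of -0.15 and a change of 2.59, Cpr11A -0.27 and 3.18, and Cpr56F -0.33 and 3.06. TwdlE had a ratio above 0, with 89.0 and 47.7 in the authors' deposited tables and more spliced read pairs in mutants. Over the 36 members, Spearman's rho between the ratio and the mutant change was -0.706, against 0.0276 over the 3836 genes. These points share libraries and copies, and the value is descriptive.

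**Figure D3:**
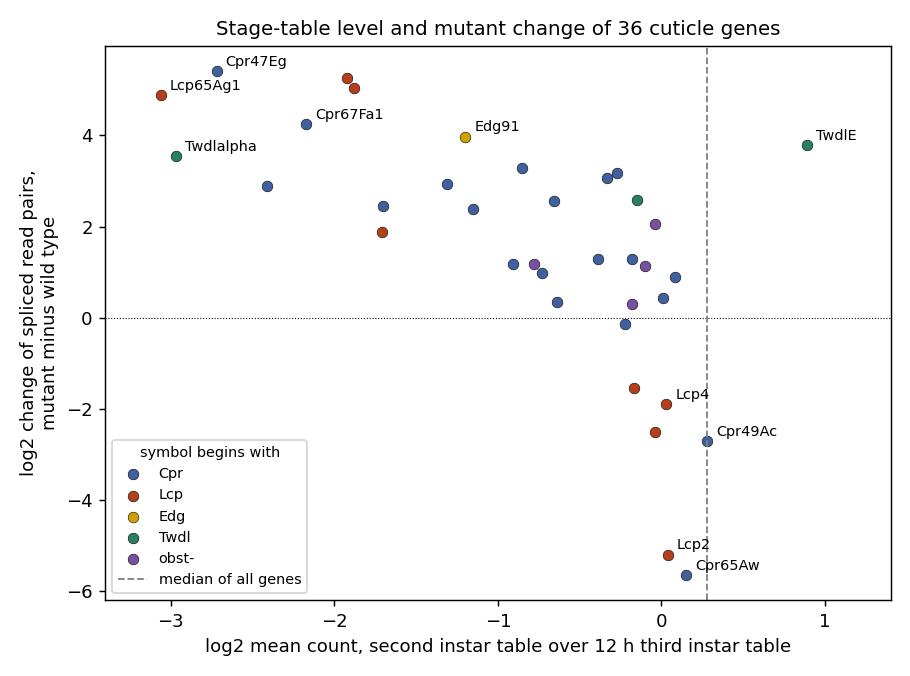
For 36 cuticle genes, the log2 ratio of the mean count in the authors' deposited second instar table over that in the 12 h table (x axis) and the log2 change of spliced read pairs, mutant minus wild type (y axis), coloured by symbol. Genes left of -1 all lie between 1.89 and 5.41, and the genes below 0 lie between -0.22 and 0.28, the median of all genes (dashed line).

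Of 23 Tweedle genes without a testable intron, 22 had a mean of at least 10 in either stage table, and the ratio was below -1 in 9, above 1 in 7 and between these in 6. The 3 lowest and 3 highest by this ratio are given, chosen after their values were seen. In the authors' deposited tables, TwdlK had means of 26.6 in the second instar table and 891 in the 12 h table, TwdlO 46.9 and 1140, and TwdlJ 33.2 and 794. TwdlF had 1520 and 302, TwdlQ 176 and 24.4, and TwdlD 366 and 67.1. In the mean over wild type and mutant libraries, in the authors' deposited table, TwdlK, TwdlO and TwdlJ stood at 768, 2220 and 501, and TwdlF, TwdlQ and TwdlD at 37.4, 1.02 and 7.68. That table gives no level for each genotype.

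Retained read pairs were few in members, yet their ratio to spliced read pairs was higher in mutants for Lcp2, Lcp3 and Lcp4. The ratio was tested in 33 member introns of 22 genes with at least 20 spliced or retained read pairs in every library, by limma with weights from counting error. Of these, 3 passed an adjusted p of 0.05, beside 0.392% of 11481 introns, and all 3 were higher, beside 0.366%. The groups did not overlap in 17 higher and 6 lower member introns, against backgrounds of 42.8% and 11.9%, and the median log2 change was 1.12 over members and 0.59 over all introns. At an unadjusted p under 0.05 there were 15 of 33, beside 20.5%. Introns of a single gene are counted separately here, and all 7 tested introns of Cpr49Ac are among the 17 higher. Most of them are also among the 15, and some share bases or hold an annotated exon of the gene. Lcp4 had 10 and 5 retained pairs in Oregon R and 130 and 48 in the mutants, a log2 change of the ratio of 4.90 (SE 0.288, adjusted p = 0.0397 by limma). Lcp3 had 8 and 2 retained pairs, then 47 and 23, a change of 4.90 (SE 0.35, adjusted p = 0.0491 by limma). Lcp2 had 6 and 3, then 21 and 10, a change of 6.39 (SE 0.425, adjusted p = 0.0426 by limma). In these 3 genes spliced pairs were lower and retained pairs higher in both mutants than in both wild type libraries. The retained form stayed rare: the deposited fraction was 0.00 in both wild type libraries for all 3, and 0.05 and 0.07 in mutants for Lcp2, 0.01 and 0.02 for Lcp3, and 0.01 and 0.01 for Lcp4. When any single library was left out, 0 of all 11481 introns passed by limma, and the adjusted p of these 3 genes was 0.17 to 0.268.

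In other members the ratio did not pass the threshold. The fit rarely reaches it: of introns changed by 4 on the log2 scale in simulated data, it called 2.5%. A ratio that did not pass is therefore not a sign of no change. TwdlX had 2 and 0 retained pairs in Oregon R and 7 and 3 in the mutants (log2 change -0.44, SE 0.549). Cpr47Ec had 4 and 0 retained pairs in Oregon R and 61 and 34 in the mutants (log2 change 4.02, SE 0.454, adjusted p = 0.0578 by limma). The longest obst-A intron (X:20111101-20112135) had 7 and 3, then 79 and 43 (log2 change 1.94, SE 0.231, adjusted p = 0.0588 by limma). Cpr56F had the lowest change, -3.43 (SE 0.395, adjusted p = 0.0578 by limma), with 25 and 96 retained pairs in Oregon R and 46 and 59 in the mutants, but an exon of CkIIbeta2 lies inside its intron on the other strand. Without a statement on strand, such reads cannot be assigned to Cpr56F. In the Cpr50Ca intron of 10436 bases, retained pairs numbered 226 and 1602 in Oregon R and 123 and 109 in the mutants and spliced pairs 0 throughout, and exons of lncRNA:CR43810 and S-Lap7 lie inside it. Annotated exons lay inside 7 of the 33 introns.

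**Figure D4:**
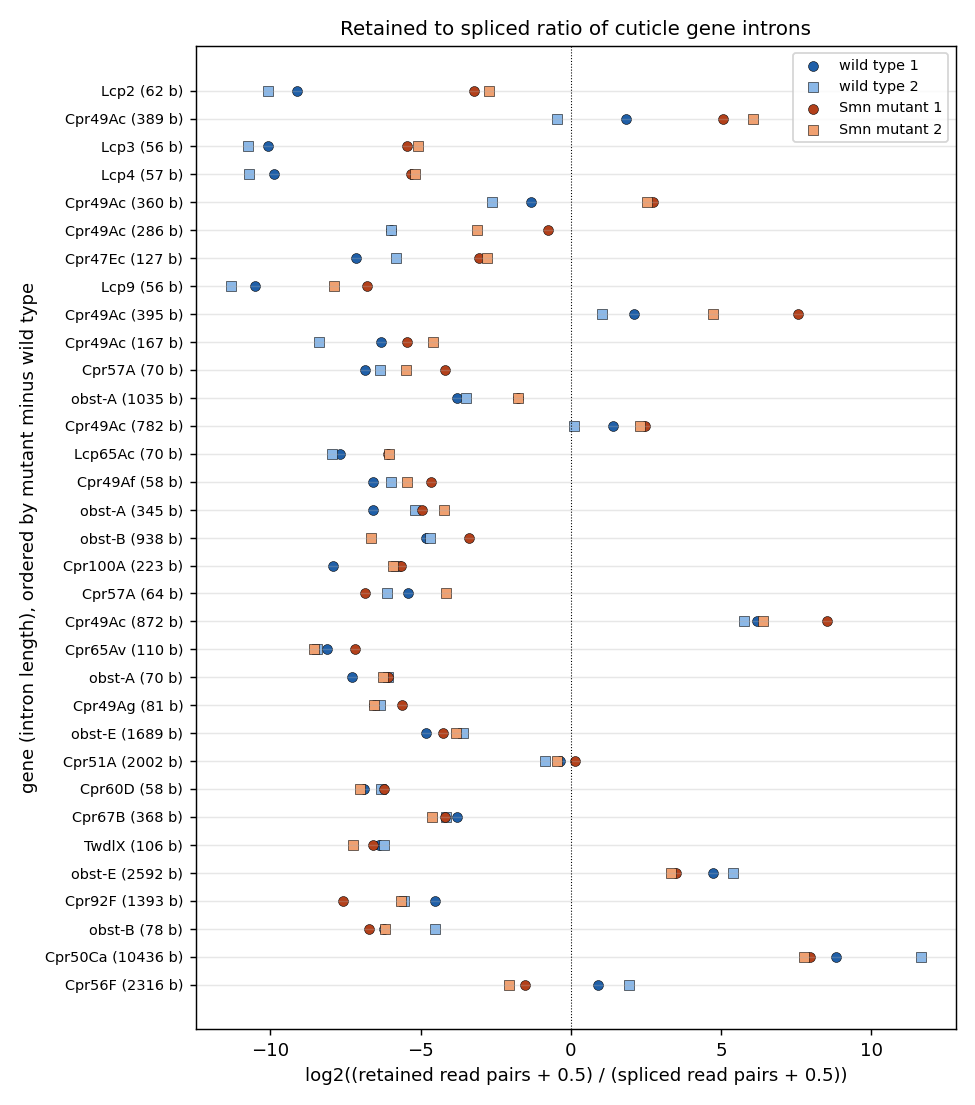
Retained over spliced read pairs, each plus 0.5, as log2 (x axis), for the 33 member introns tested (rows, with intron length, ordered by mutant minus wild type), with 1 marker per library. In Lcp2, Lcp3 and Lcp4 the mutants lie between -5.44 and -2.71 and the wild type libraries between -10.74 and -9.11, and in Cpr56F the mutants lie left of the wild type.

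Cpr49Ac, the member with the most events, differed in form as well as in amount. Its cassette exon, between introns 2R:8275023-8275417 and 2R:8275445-8275804, had 265 and 480 read pairs specific to inclusion in wild type and 12 and 36 in mutants, while pairs specific to skipping were 7 and 7, then 6 and 21. The deposited inclusion fraction was 0.95 and 0.97 in Oregon R and 0.43 and 0.47 in the mutants. The intron 2R:8276039-8276427, which holds another annotated exon of the gene, had 36 and 100 spliced pairs in Oregon R and 6 and 7 in the mutants, with 130 and 72 retained pairs in Oregon R and 219 and 502 in the mutants. Its deposited retained fraction was 0.07 and 0.02 in Oregon R and 0.63 and 0.73 in the mutants. The ratio changed by 5.15 on the log2 scale (SE 1.43, adjusted p = 0.175 by limma).

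Besides retained introns, members had 9 events of alternative 5′ splice sites and the 1 cassette exon of Cpr49Ac. The deposited fraction of the first form was 0.00 in every library for Lcp3, and for obst-A it was 0.01 in both wild type and 0.02 in both mutant libraries. The 2 events of Cpr65Aw could not be compared, with at most 6 specific pairs in a mutant library. For obst-E, the longer intron form (2L:5763369-5765960) had 60 and 5 spliced pairs in Oregon R and 124 and 82 in the mutants, and its deposited retained fraction was 0.73 and 0.80 in Oregon R and 0.50 and 0.51 in the mutants. Since an annotated obst-E exon lies inside it, this is a choice between end exons rather than an unspliced intron, and the change of -1.36 (SE 0.159) had an adjusted p of 0.0578 by limma.

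Exon bins, the stretches of a gene that the authors counted separately, gave another view of the choice of exons. In the table that compares the genotypes, the authors' deposited table, 18 of 212 tested member bins in 10 genes passed an adjusted p of 0.05, beside 2.99% of all bins. Of these, 12 came from 6 genes with only 2 bins, where a rise in one bin is a fall in the other, and the changes were small: the bins of Lcp1, Lcp2, Lcp4, Lcp65Ae, Lcp65Ag2 and Cpr67Fa2 moved by -0.34 to 0.31 on the log2 scale. Larger folds in the authors' deposited table were 2.1 for bin 7 of Cpr49Ac (adjusted p = 0.000505), 1.16 for bin 2 of TwdlE (adjusted p = 0.00968) and -0.90 for bin 5 of Cpr50Cb. Bin 4 of Cpr49Ac fell by 0.43 in the same authors' deposited table.

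Between normal stages, some bins of Cpr49Ac, TwdlE and obst-E had the opposite sign to that in mutants, while others, such as bin 5 of Cpr49Ac, did not. In the authors' deposited table of puff stage 1-2 against 12 h into the third instar, 7 of 222 member bins passed, beside 0.638% of all bins, and against second instar 3 of 219 passed, beside 1.03%. Bin 7 of Cpr49Ac had a log2 fold of -1.05 against 12 h (adjusted p = 1.46e-06 in the authors' deposited table) and -0.38 against second instar, which did not pass. Bin 1 of TwdlE had 0.56 and 0.44, both past the threshold, against -0.29 in mutants in the authors' deposited tables. For obst-E, bin 1 had -0.32 and -0.63 and bin 2 had 0.09 and 0.26 between stages, all past the threshold, against 0.25 (adjusted p = 0.117) and -0.11 (adjusted p = 0.0174) in mutants, in the authors' deposited tables. The stage tables share their puff stage libraries, and the bins carry no coordinates. Bin 1 of Lcp2 had 0.17 against 12 h and 0.08 in mutants in the authors' deposited tables, the same direction in both. TwdlG, named for its low p between stages, passed in none of the 3.

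**Figure D5:**
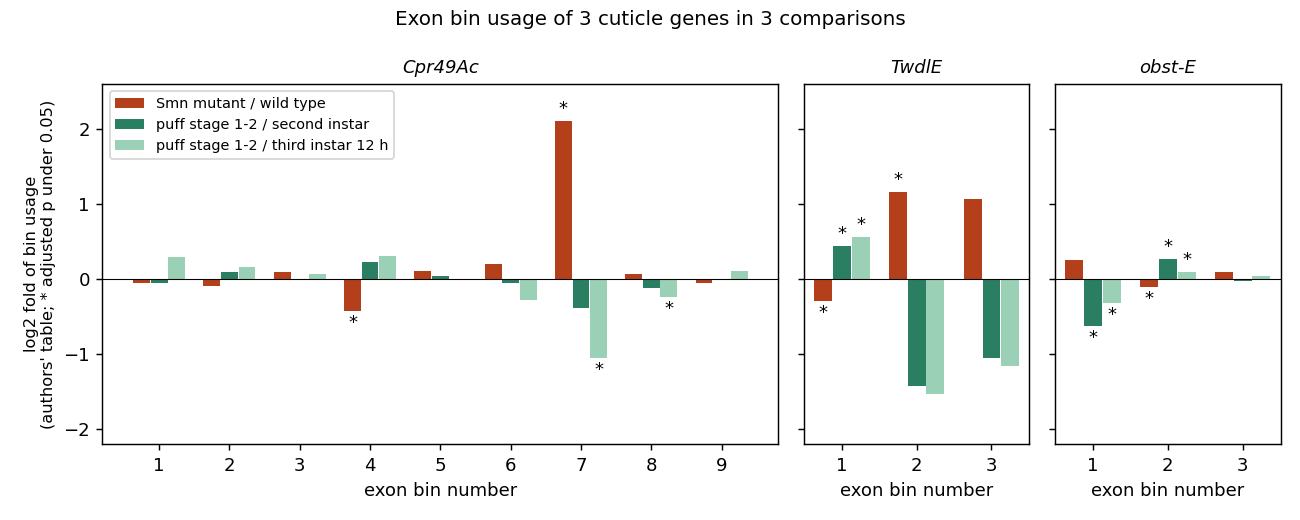
Log2 fold of exon bin usage from the authors' deposited tables (y axis) for each bin (x axis) of Cpr49Ac, TwdlE and obst-E in 3 comparisons, with an asterisk at an adjusted p under 0.05. Bin 7 of Cpr49Ac is at 2.1 in mutants and -1.05 between stages, and the bins of TwdlE and obst-E marked in mutants also have the opposite sign between stages.

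Genes that build and tan the cuticle were taken from lists, measured by spliced read pairs in the same fit and with the same filter. Among those named below, Cda5, ple, Ddc and Eip75B stayed under 20 pairs in both wild type libraries, and EcR and br in both mutants. Each of these passed the filter only through the group where it was higher. Over all introns, 38.9% lay higher and 21.3% lower without overlap, 16.4% were higher and 8.52% lower at an unadjusted p under 0.05, and the median log2 change was 0.24. Of 31 genes for chitin synthesis and assembly, 18 had a tested intron, 0 passed the adjusted threshold, and 11 lay higher and 2 lower without overlap (median log2 change 0.62). At an unadjusted p under 0.05, 7 were higher and 0 lower by limma. The chitin deacetylase serp had 112 and 38 pairs in Oregon R and 592 and 467 in the mutants, verm 187 and 58, then 426 and 380, and Cda5 6 and 2, then 41 and 37. The chitin synthase kkv had 20 and 8, then 46 and 41. Of 24 symbols listed for tanning, 19 were in the reference and 11 were tested. Of the 11, 0 passed, and 3 were higher and 1 lower at an unadjusted p under 0.05 by limma, with 4 higher and 3 lower without overlap. Among these ple, the tyrosine hydroxylase, had 10 and 9 pairs in Oregon R and 91 and 153 in the mutants, and Ddc, the dopa decarboxylase, 6 and 8, then 34 and 48. The 3 lower genes were yellow-h, with 86 and 95, then 24 and 27 (log2 change -2.03), and the prophenoloxidases PPO1 (-0.85) and PPO2 (-0.37). Of 29 symbols listed as moulting regulators, 26 were in the reference and 9 were tested. Of the 9, 0 passed the adjusted threshold, and 1 was higher and 4 lower at an unadjusted p under 0.05 by limma. Without overlap, 2 lay higher and 4 lower. Among the lower genes, the ecdysone receptor EcR had 35 and 31 pairs in Oregon R and 17 and 12 in the mutants, the early ecdysone-response gene br 38 and 28, then 13 and 4, and shd, the enzyme that makes 20-hydroxyecdysone, 100 and 167, then 25 and 22. The 2 higher genes were ImpL2, with 34 and 57, then 159 and 142, and Eip75B, with 18 and 17, then 31 and 43. The ImpL2 intron is shared with CG46460.

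Markers of stage and of other tissues moved beside the members. Of 13 products of the salivary gland and fat body of the third instar, 4 could be tested: Lsp1alpha, Lsp1beta, Lsp1gamma and Fbp2. The Sgs genes, which are the salivary gland products, had no tested intron. All 4 tested genes were lower in mutants, and 1 passed: Lsp1alpha, a larval serum protein, had 15801 and 10682 pairs in Oregon R and 14 and 63 in the mutants (log2 change -8.96, adjusted p = 0.0372 by limma). The summed scaled level of the 4 was 76220 and 55150 in Oregon R and 1921 and 2725 in the mutants. The 4 tracheal and epidermal markers, all tested, summed to 402.3 and 294.1 in Oregon R and 1170 and 957.7 in the mutants. All 4 are also in the chitin list above. Of these serp, verm and kkv lay higher without overlap, while Gasp overlapped (log2 change 0.25). All 5 muscle markers lay higher, with sums of 16800 and 13730, then 40700 and 23270. Fat body markers, 2 of 4 tested, summed to 29440 and 14390, then 4813 and 5285. That sum was mostly Lsp1beta in Oregon R, which is also among the 13 products above (log2 change -3.58), while apolpp lay higher in both mutants (0.66). For the midgut, 2 of 5 summed to 5613 and 6606, then 4161 and 4640. Among nervous system markers 1 of 4 was tested, at 85.88 and 274.2, then 83.48 and 58.09. Among blood markers 1 of 3 was tested, at 351.9 and 504.8, then 241.3 and 227.7. This was PPO1, which is also in the tanning list above. The part of these tissues and of stage in the members' values was not tested.

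The reductase gene Cpr, kept out of all counts and medians, had 570 and 239 spliced pairs in Oregon R and 420 and 476 in the mutants at the intron 2L:6343070-6344158, a log2 change of 0.06 (SE 0.444, adjusted p = 0.95 by limma).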

How the data were processed

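Sample titles gave the groups and replicate numbers. Reads were aligned by the authors to the dm3 assembly with TopHat 2.0.8 and Bowtie2 2.1.0, according to the deposited readme, and MISO 0.4.8 assigned read pairs to modENCODE splicing events, comparing libraries in pairs. Per the file headers, an event carries a fraction, the posterior mean for its first isoform rounded to 0.01, a Bayes factor (a ratio, not used here) and the count of read pairs in every compatibility class. For exon tables the authors used Samtools 0.1.19 and DEXSeq (1.0.2 or a later version). Columns of these tables, per the file headers, are a log2 fold, a p-value and its adjusted form, and the mean normalized count, which is a signal that the authors averaged across the libraries compared. The strand setting of counting is not given in the sources used here.

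Members and gene lists were chosen with earlier results of these data known. Events on dm3 were named by dm6 introns of equal length and strand at the displacement shared by at least 5 of the 21 nearest events of the same structure, which named 20367 of 26072 events while 8 events within members had no annotated intron of that length. No coordinates were converted: event positions are dm3 and sequence positions dm6 (NCBI RefSeq genome, Ensembl annotation). Read classes are text within a column, so limma 3.58.1 in R 4.3.3 was used on log2 values rather than a count model. In simulated data, the fit of spliced pairs called 48% of introns changed by 2 on the log2 scale and 100% of those changed by 4. The fit of retained to spliced ratios called 0% and 2.5%, and 16.7% of its 6 calls at a change of 4 were false. The simulation gave both groups the same spread. In the data, the root mean square log2 difference over all introns was 1.14 between wild type libraries and 0.454 between mutants. Over member introns it was 2.51 between wild type libraries. Cpr47Eg, with a change of 5.41, did not pass, so the simulated shares do not carry over to these data. Ratios of retained to spliced pairs were weighted by counting error, which read pairs without molecular identifiers understate. With 2 libraries a group, an exact two-sided permutation test cannot go below 0.33. Named genes were those past a threshold, the 8 with the highest level and the 8 with the highest and lowest changes, the 4 with the most extreme retention changes, the top gene of each family, and the 4 with the lowest p in each stage table; Cpr97Ea and the members absent from wild type library 2 were added after their values were seen, as were genes of lists and clusters. Alternatives were another scaling, filters, pseudocounts, voom weights, a replicate block and leaving out each library.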

Additional observations from a re-analysis of the deposited data

How the results depend on the processing

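For spliced read pairs, member introns past the adjusted threshold numbered 1 as reported, 0 with at least 100 spliced pairs, 0 with all read pairs of the event, 0 with voom weights and 5 with a pseudocount of 5, and from 7 to 43 with each library left out in turn, where 0.783% to 53.4% of all introns passed and the remaining library of that group is assumed to vary like the other group. With the replicate number as a block it was 21 (328 of all introns), but deviations of same-numbered libraries correlated at -0.0166, so the numbers show no pairing. The median change was 0.84 to 1.9 with each library left out, and 1.97 with 1 intron per gene, an alternative chosen after seeing the data. Introns without overlap numbered 26 of 32 with at least 100 spliced pairs required, since fewer were tested. For retention, 3 introns passed as reported, 8 of 14 with a mean of at least 10 pairs of each isoform, 7 with a pseudocount of 2, 0 with the replicate block and 0 to 0 with each library left out, when 0 of all introns passed; the median of 1.12 became 2.73, 0.46 with a pseudocount of 2, and 0.5 on the logit scale of the deposited fraction, and the cause was not tested. Exon bin counts stayed within 1.5 times under every alternative. Of 287 single-gene values under an alternative, 204 kept direction and call, 60 passed the threshold only there, 19 lost it and 4 reversed: Cpr57A, -0.89 to 0.63 with each library left out (0.63 without wild type replicate 2 and 0.27 without Smn mutant replicate 2), obst-B at -0.12 with all read pairs, and obst-E, -0.03 to 2.39 with each library left out and -0.03 without wild type replicate 2. Events under 20 read pairs are not listed, so members silent in a library are not seen.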
